A study of Mus musculus with 4 samples.

Results

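The T cell receptor gene segments of the mouse are the V, D, J and C units of 3 loci, and they were examined here for open chromatin in natural killer (NK) cells. All GENCODE mm10 genes with a gene type starting with TR_ were taken, which gave 270 segments out of 55450 annotated genes. They comprised 178 V, 4 D, 80 J and 8 C segments, of which 226 were listed as genes and 44 as pseudogenes. The Tra and Trd segments share 1 locus on chromosome 14 with 202 segments, Trb on chromosome 6 has 53 and Trg on chromosome 13 has 15.

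Chromatin was assayed by DNase-seq, in which the nuclease DNase I cuts accessible DNA. The 4 libraries form 1 group of primary NK cells from virgin female B6CASTF1/J mice, an F1 hybrid of C57BL/6 and CAST parents, aged 2 months, with no treatment or engineered allele given. The labels give a separate biosample for each library and 1 donor identifier for all, and they give neither the tissue nor the markers used to isolate the cells, so the p-values measure only the spread between these libraries. With 1 group there was no contrast between conditions, and the comparison was between segment classes within each library.

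Developing T cells join single V, D and J segments by V(D)J recombination, in which the RAG1 and RAG2 recombinase cuts at the recombination signal sequences (RSSs) beside each segment. An RSS has a heptamer starting with CAC, a spacer and an A-rich nonamer. NK cells belong to the same lymphoid branch but carry out their function without a rearranged T cell receptor. The loci are known to be controlled by enhancers, Eα between Trac and Dad1 and Eβ between Trbc2 and Trbv31, and by promoters ahead of the V segments, of Trbd1 and of the Tra J array.

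Replicate 3 stood apart from the other libraries. It had 69168 peaks against 44113, 47496 and 36285 in replicates 1, 2 and 4, and the files give no read totals. At the 5' ends of 10 NK marker genes the summed peak signal was 18.2, 20.8, 55.1 and 18.4 in replicates 1 to 4, with 6, 7, 10 and 5 of the 10 genes having a peak. Of these genes 5 were recurrent (Ncr1, Eomes, Prf1, Gzmb and Il2rb), while Klrb1c, Klrk1, Klrd1, Tbx21 and Gzma had a peak in 1 or 2 libraries. For 14 T cell markers the sums were 8.84, 11.9, 14.7 and 8.21, with 4 of the 14 recurrent (Foxp3, Bcl11b, Lat and Cd3g). Foxp3, at 5.12, 6.53, 9.51 and 4.83, made up most of these sums. Cd3d, Cd3e, Cd4, Cd8a, Cd8b1, Cd6, Cd28 and Trat1 had no peak at the 5' end in any library, though 2, 1, 1 and 3 recurrent regions lay elsewhere in Cd3d, Cd3e, Cd6 and Cd28 or within 1 kb of them. For 10 B cell markers the sums were 5.81, 11.8, 2.70 and 9.53, with replicate 3 the lowest. Of these 6 were recurrent, with Pax5, Ebf1, Cr2 and Pou2af1 open in all 4 libraries and Cd79b and Ms4a1 in 3, and Fcer2a was among those at no peak in any library. For 8 myeloid markers they were 7.97, 9.53, 15.6 and 7.91, with Spi1, Cebpa, Itgam, Cd68 and Cebpe open in all 4 libraries. Csf1r, Lyz2 and Mpo had no peak at the 5' end in any library, and Csf1r had 1 recurrent region elsewhere in the gene or within 1 kb. The share of all genes with a recurrent region at the 5' end is not given here, so the marker counts stand without a background. In bulk libraries a weak site in every cell and a strong site in a few cells cannot be told apart, and the part of these differences in the results below was not tested. Main values are therefore also given without replicate 3.

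Most T cell receptor segments had no open chromatin nearby. A segment window was the segment plus 1 kb on either side, and a recurrent region was a stretch of merged peaks found in at least 3 of the 4 libraries. Recurrent regions lay in the windows of 21 of the 270 segments, or 7.78%, and 218 segments had no peak in any library. The same share was 33.3% for the windows of all other annotated genes, 6.74% for those of other genes of up to 1000 bases, and 3.3% for genome tiles of 2500 bases. The count for the segments was thus near that of other short genes. Without replicate 3, with 2 of the remaining 3 libraries required, the same 21 segments were called and no others. A region of 3 libraries mostly keeps 2 when 1 is left out, so keeping these 21 was nearly fixed in advance. Of the 21, 12 were also called with the shorter of the authors' 2 peak lists. With a peak required in all 4 libraries 15 were called, and with equal numbers of strongest peaks 17. Without replicate 1 or replicate 2, when replicates 3 and 4 suffice for a call, J segments with a region went from 4 to 10, and V segments from 13 to 18 and 19. A peak in replicate 3 alone was seen at 17 segments.

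V and J segments were mostly closed, and the few D and C segments were open more often. A recurrent region was found at 13 of 178 V segments (7.30%), 2 of 4 D segments (50%), 4 of 80 J segments (5.0%) and 2 of 8 C segments (25%). The V and J shares were near the 6.74% of other genes of up to 1000 bases. The C share was below the 33.3% of all other annotated genes. C segments are also longer, with a median of 2912 bases against 523 for V, 60 for J and 13 for D. The part of length in these shares was not tested. Per library, peaks were found in 8.43%, 8.43%, 17.4% and 7.30% of V windows in replicates 1 to 4, and in 5.0%, 5.0%, 18.75% and 8.75% of J windows. Replicate 3 was the highest library in both classes, and V and J windows overlapped in range. D windows had a peak in 50%, 50%, 75.0% and 50% of cases, and C windows in 25%, 25%, 37.5% and 25%. Both classes lay above V in each of the 4 libraries.

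The share of windows with a peak was higher for D than for V by 45.9 ± 7.84 percentage points and for C than for V by 17.7 ± 1.66 (SD, n = 4 libraries). The J share differed from the V share by -1.02 ± 2.78 points and lay above it in 2 of 4 libraries. The two-sided exact sign-flip permutation test over libraries gave p = 0.125 for D and for C, the smallest value that 4 libraries allow, and p = 0.5 for J. Adjusted over the 6 class differences tested these were 0.1875, 0.1875 and 0.5, so none could pass 0.05. Without replicate 3 the differences were 41.9 ± 0.649 for D, 16.9 ± 0.649 for C and -1.80 ± 2.81 for J (n = 3). With no flank, D minus V was 8.29 ± 13.7 points (exact sign-flip p = 0.5, n = 4), so the D difference was smaller over the segments alone than with their flanks. The classes hold few independent units, since 1 D segment is 25 points of its class and neighbouring windows share regions. The J minus V difference turned to 0.930 ± 5.07 points when each library was reduced to its 36285 strongest peaks, an alternative chosen after seeing the data.

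The false discovery rate (FDR) of DNase cutting is listed per base. Low-FDR bases, those below 0.001, were denser in C than in V windows in each library, as were peaks. The D mean depended on replicate 3, and the order of V and J differed between libraries, as it did for peaks. C windows held 41.1, 37.8, 67.8 and 37.8 such bases per kb in replicates 1 to 4, with a mean of 46.1 ± 14.5 (SD, n = 4). D windows held 27.1, 9.69, 198 and 23.6, with a mean of 64.6 ± 89.4. V windows held 5.16, 3.91, 16.2 and 2.87, with a mean of 7.04 ± 6.19. J windows held 0.706, 0.0598, 17.5 and 0.538, with a mean of 4.71 ± 8.55, so in the 3 other libraries the J windows were nearly empty. The J density was below that of V in replicates 1, 2 and 4 and above it in replicate 3 (exact sign-flip p = 0.25, adjusted 0.3), and D and C lay above V in all 4 libraries (p = 0.125, adjusted 0.1875). Without replicate 3 the means were 38.9 ± 1.92 for C, 20.1 ± 9.20 for D, 3.98 ± 1.15 for V and 0.434 ± 0.335 for J (n = 3). The genome as a whole held 5.11 ± 1.78 such bases per kb (n = 4). Gene windows are the closer background. Windows of other annotated genes held 10.88 ± 3.16, and those of other genes of up to 1000 bases 14.97 ± 3.64. All segment windows together held 9.96 ± 8.78. The V and J windows lay below the windows of other short genes in each library, and the C windows above them. The D windows lay below them in replicate 2 and above them in the other libraries.

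**Figure D1:**
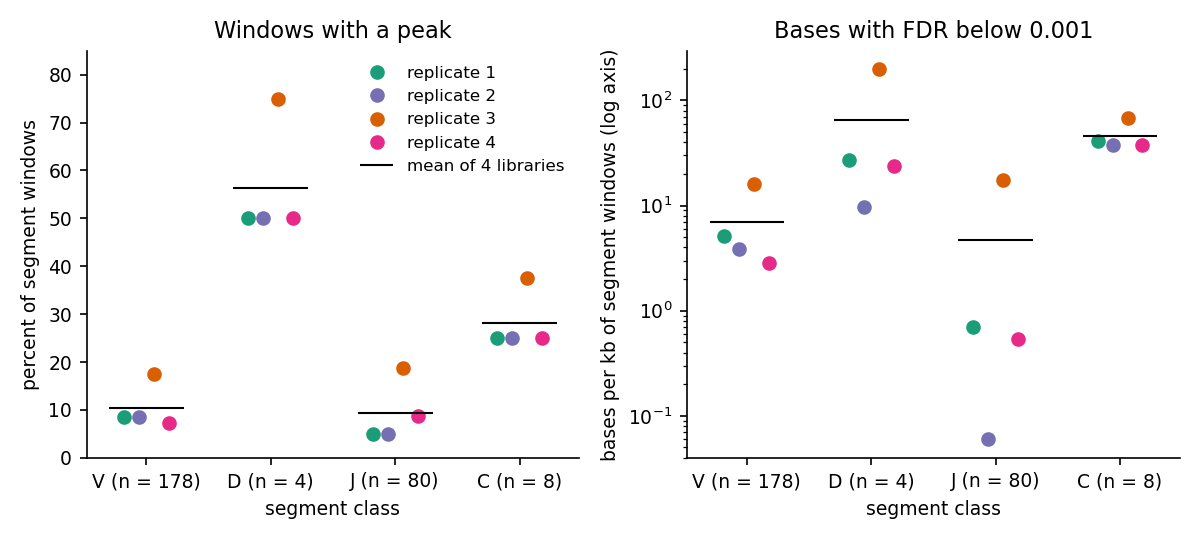
Percent of segment windows with a peak (left) and bases with an FDR below 0.001 per kb of window (right, log axis) for V, D, J and C segments; each point is 1 library and each line the mean of 4. D and C lie above V in every library, and replicate 3 (orange) is the highest point of every class in both panels.

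Footprints, the short protected stretches that the authors called inside cut chromatin, were also fewest in V and J windows. C windows held 2.13 ± 0.810 footprints each, D windows 1.25 ± 1.51, V windows 0.199 ± 0.135 and J windows 0.175 ± 0.292 (SD, n = 4 libraries). C windows are longer, since the median segment has 2912 bases against 523 for V, 60 for J and 13 for D. Per kb the means were 0.621 ± 0.752 for D, 0.372 ± 0.142 for C, 0.0801 ± 0.0541 for V and 0.0777 ± 0.108 for J, so D and C change places. Without replicate 3 the values per window were 1.75 ± 0.375 for C, 0.50 ± 0.250 for D, 0.133 ± 0.0265 for V and 0.0292 ± 0.0191 for J (n = 3). No footprint in any library touched 154 of the 178 V windows, 1 of 4 D windows, 66 of 80 J windows and 6 of 8 C windows. The genome held 4.98 ± 1.45 footprints per 100 kb (n = 4 libraries). Per length, V windows exceeded the genome in each library, and J windows only in replicate 3. The footprint density in windows of other genes is not given here, so neither class can be read as high or low among genes.

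The constant segments, which encode the membrane-proximal part of each receptor chain, divided by locus. Trac and Trdc, the α and δ constant genes, had recurrent regions, while Trbc1, Trbc2 and the 4 Tcrg-C genes had none. Trac (chr14:54220521-54224206) had 3 recurrent regions in its window. The one in its intron, chr14:54222261-54222760, had peak signals of 2.28, 2.66, 8.75 and 2.73 in replicates 1 to 4. The others, chr14:54224481-54224840 and chr14:54225081-54225440, began 274 and 874 bases past the gene and averaged 2.79 ± 1.82 and 5.56 ± 2.87 (SD, n = 4). All 3 were highest in replicate 3 and were present in all 4 libraries. For Trdc (chr14:54142851-54148868) the strongest region, chr14:54146461-54146760 in an untranslated part of the gene, had 1.92, 2.00, 4.04 and 1.70. A second one at chr14:54147601-54147902, which is also in the window of Trdv5, averaged 1.48 ± 0.722.

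Trbc2 and Tcrg-C1, Tcrg-C2, Tcrg-C3 and Tcrg-C4 had no peak, no low-FDR base and no footprint in any library. Trbc1 had a peak only in replicate 3, at 0.706. The median signal of recurrent regions over the genome was 1.44. Unique sequence made up 90.8% of the Trbc1 window, 90.6% of the Trbc2 window, 98.6% for Tcrg-C4 and 51.2%, 61.2% and 51.9% for Tcrg-C1, Tcrg-C2 and Tcrg-C3, where unique sequence means 32-base words that occur once in the assembly. Trbc1 and Trbc2, and the Tcrg-C genes, are near copies of each other, so reads could be lost or split between them in mapping, which was not tested.

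The strongest region in the Tra/Trd locus outside a promoter lay between Trac and Dad1, the interval known for Eα. It spanned chr14:54227401-54227780, 3194 bases past Trac. Its signals were 7.93, 9.41, 21.9 and 9.81 in replicates 1 to 4 (mean 12.3 ± 6.47, SD, n = 4), which put it at the 96.3, 95.8, 99.7 and 95.6 percentile of the peaks of each library. Replicate 3 was the highest, the 3 others lay close together, and in every library the region was far above the median peak. The promoter region of Dad1, a gene of the oligosaccharyltransferase that all cells use, had 8.39, 12, 17.6 and 16.2 at chr14:54253801-54254160. The central 300 bases of the region past Trac are shown because footprints recur there between libraries; capitals mark bases in a footprint of at least 3 libraries, plus strand, chr14:54227441-54227740.
Trac 3' region: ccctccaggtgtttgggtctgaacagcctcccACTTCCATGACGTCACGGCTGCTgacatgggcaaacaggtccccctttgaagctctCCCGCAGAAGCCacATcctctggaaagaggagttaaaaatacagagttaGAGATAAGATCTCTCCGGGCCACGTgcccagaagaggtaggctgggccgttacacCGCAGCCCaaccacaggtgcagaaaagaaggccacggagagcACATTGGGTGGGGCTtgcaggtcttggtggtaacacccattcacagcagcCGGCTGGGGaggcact

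These bases hold 7 shared footprint runs over 94 bases, and replicates 1 to 4 had 7, 6, 6 and 6 footprints there. The first run, chr14:54227473-54227495, is 23 bases long and was present in all 4 libraries. It holds TGACGT, the cAMP response element (CRE) word bound by CREB and ATF proteins. A later run, chr14:54227578-54227602, holds the GATA word AGATAA and was shared by at least 3 libraries. A TCF/LEF word CTTTGA lay outside the shared runs, as did 1 of the 2 RUNX words, TGTGGT on the minus strand. The other RUNX word, TGCGGT on the minus strand, lay partly inside one. Eα is known as a compact enhancer bound by CREB/ATF, TCF/LEF, RUNX and ETS proteins, and the word AGGAAG searched for ETS was not in these letters. Only fixed words were searched, so other forms of ETS or RUNX sites, inside or outside the shared runs, were not examined.

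The interval from Trac to the 3' end of Dad1 was densely open. It held 7 recurrent regions in 14.96 kb, or 46.8 per 100 kb, against 1.39 per 100 kb over chromosomes 1 to 19 and X. Low-FDR bases covered 220, 225, 289 and 207 per kb in replicates 1 to 4 (235 ± 36.6, SD, n = 4), with replicate 3 the highest. This measure cannot exceed the length of a region. At the region 3194 bases past Trac it covered all 380 bases in each library, while the peak signals were 7.93, 9.41, 21.9 and 9.81. It therefore does not show that the libraries were alike there. Further recurrent regions of the interval lay 3754 and 9054 bases past Trac and averaged 3.95 ± 1.49 and 3.12 ± 1.12. The region in an intron of Dad1 at chr14:54239141-54239340 averaged 2.81 ± 0.867, and one over an exon of Abhd4 at chr14:54259081-54259320 averaged 2.36 ± 0.875.

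The J array beside it was closed apart from 1 weak region. The stretch from Traj61 to Traj1 is 63.8 kb long and 98.3% unique. It held 1 recurrent region, or 1.57 per 100 kb against 1.39 over the genome. Its low-FDR bases were 0 in replicates 1, 2 and 4 and 7.25 per kb in replicate 3. The 1 region, chr14:54168961-54169300, is in the windows of both Traj49 and Traj48 and had signals of 0.470, 0.735 and 1.88 in replicates 1 to 3 with no peak in replicate 4. Just outside the array, 1864 bases before Traj61, lay a stronger region at chr14:54152941-54153140. Its signals were 1.99, 2.05, 4.55 and 1.63 in replicates 1 to 4 (2.56 ± 1.34, SD, n = 4). The promoter known as TEA lies ahead of Traj61 and starts germline transcription through the array in thymocytes. The sequence of the region is shown because a single 30-base footprint, in capitals, was shared by all 4 libraries (plus strand).
Traj61 5' region: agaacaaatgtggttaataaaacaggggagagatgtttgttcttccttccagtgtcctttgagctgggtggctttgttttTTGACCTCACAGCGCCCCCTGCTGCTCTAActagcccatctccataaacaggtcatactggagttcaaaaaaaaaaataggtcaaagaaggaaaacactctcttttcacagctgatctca

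The capitals at chr14:54153021-54153050 hold the word AGGNGGCGC on the minus strand. This word is a core of the binding motif of CTCF, the factor that organises chromatin loops, and it was picked after these sequences were seen. On both strands it was found in the 150 central bases of 4 of 47 recurrent regions of the loci away from promoters (8.51%) and in 6.59% of the 23620 such regions of the genome. The longer CTCF consensus, searched by name, was in 14.9% against 17.2%. Both shares were thus near those of the genome.

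The D segments, the short pieces between V and J in the β and δ chains, were open at Trdd2 and Trbd1 and not at Trdd1. Trdd2 (chr14:54122226-54122241) lay inside a recurrent region, chr14:54122021-54122300, with signals of 0.564, 0.866, 1.74 and 0.586 in replicates 1 to 4. That region is also in the window of Trdj1. Trdd1 (chr14:54113468-54113478) had no peak, low-FDR base or footprint in any library although the sequence of its window is all unique. Trbd2 (chr6:41542163-41542176) had a peak in replicate 3 alone, at 1.03. At Trdd2 only replicate 3 exceeded the genome's median recurrent region of 1.44.

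Trbd1 (chr6:41533201-41533212) had a recurrent region 220 bases upstream at chr6:41532641-41532980, where the germline promoter of the first Dβ cluster is known to lie. The signals there were 1.97, 2.16, 4.50 and 1.28 in replicates 1 to 4 (2.48 ± 1.40, SD, n = 4), and the region reached into the window of Trbj1-1. Its central 300 bases are shown beside the 280 bases of the region past Trbc2, for comparison with the α locus; neither holds a footprint shared by 3 libraries, so there are no capitals. They lie at chr6:41532661-41532960 and chr6:41554381-41554660 on the plus strand.
Trbd1 5' region: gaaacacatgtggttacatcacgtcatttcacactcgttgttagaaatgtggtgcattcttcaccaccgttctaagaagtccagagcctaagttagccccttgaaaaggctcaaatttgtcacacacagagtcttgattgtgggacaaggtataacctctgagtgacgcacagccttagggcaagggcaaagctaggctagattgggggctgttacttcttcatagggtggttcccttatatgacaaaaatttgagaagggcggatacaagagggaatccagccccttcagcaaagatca
Trbc2 3' region: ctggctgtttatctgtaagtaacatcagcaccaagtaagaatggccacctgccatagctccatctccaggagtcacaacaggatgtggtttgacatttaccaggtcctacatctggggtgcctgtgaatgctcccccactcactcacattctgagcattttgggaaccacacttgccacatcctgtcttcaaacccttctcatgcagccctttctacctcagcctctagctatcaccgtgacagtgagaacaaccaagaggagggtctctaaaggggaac

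The region past Trbc2, in the interval known for Eβ, had signals of 3.71, 3.49, 8.20 and 3.21 (4.65 ± 2.37, SD, n = 4) and was the strongest of the Trb locus. It ended 3030 bases before Trbv31, the V segment that lies in reverse orientation past the constant genes. A weaker one beside it, chr6:41554841-41555100, had 1.54, 2.63 and 0.894 in replicates 1, 3 and 4 and no peak in replicate 2. RUNX words (TGTGGT on either strand) occurred at 2 places in each of the printed Trb sequences, and the Trbc2 one also held a GATA word. The Trbd1 one held a CRE word.

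Between these the Dβ-Jβ-Cβ cluster was closed in 2 libraries and showed peaks mainly in replicate 3. From Trbd1 to the end of Trbc2, 15.2 kb of 94.3% unique sequence, there were 0, 0, 7 and 1 peaks in replicates 1 to 4 and no recurrent region. Low-FDR bases were 46.1 per kb in replicate 3 and 0 in the 3 other libraries. Of the 14 Trb J segments, 1, 1, 11 and 6 had a peak in their window in replicates 1 to 4. Trbj1-1 was the one with a recurrent region.

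**Figure D2:**
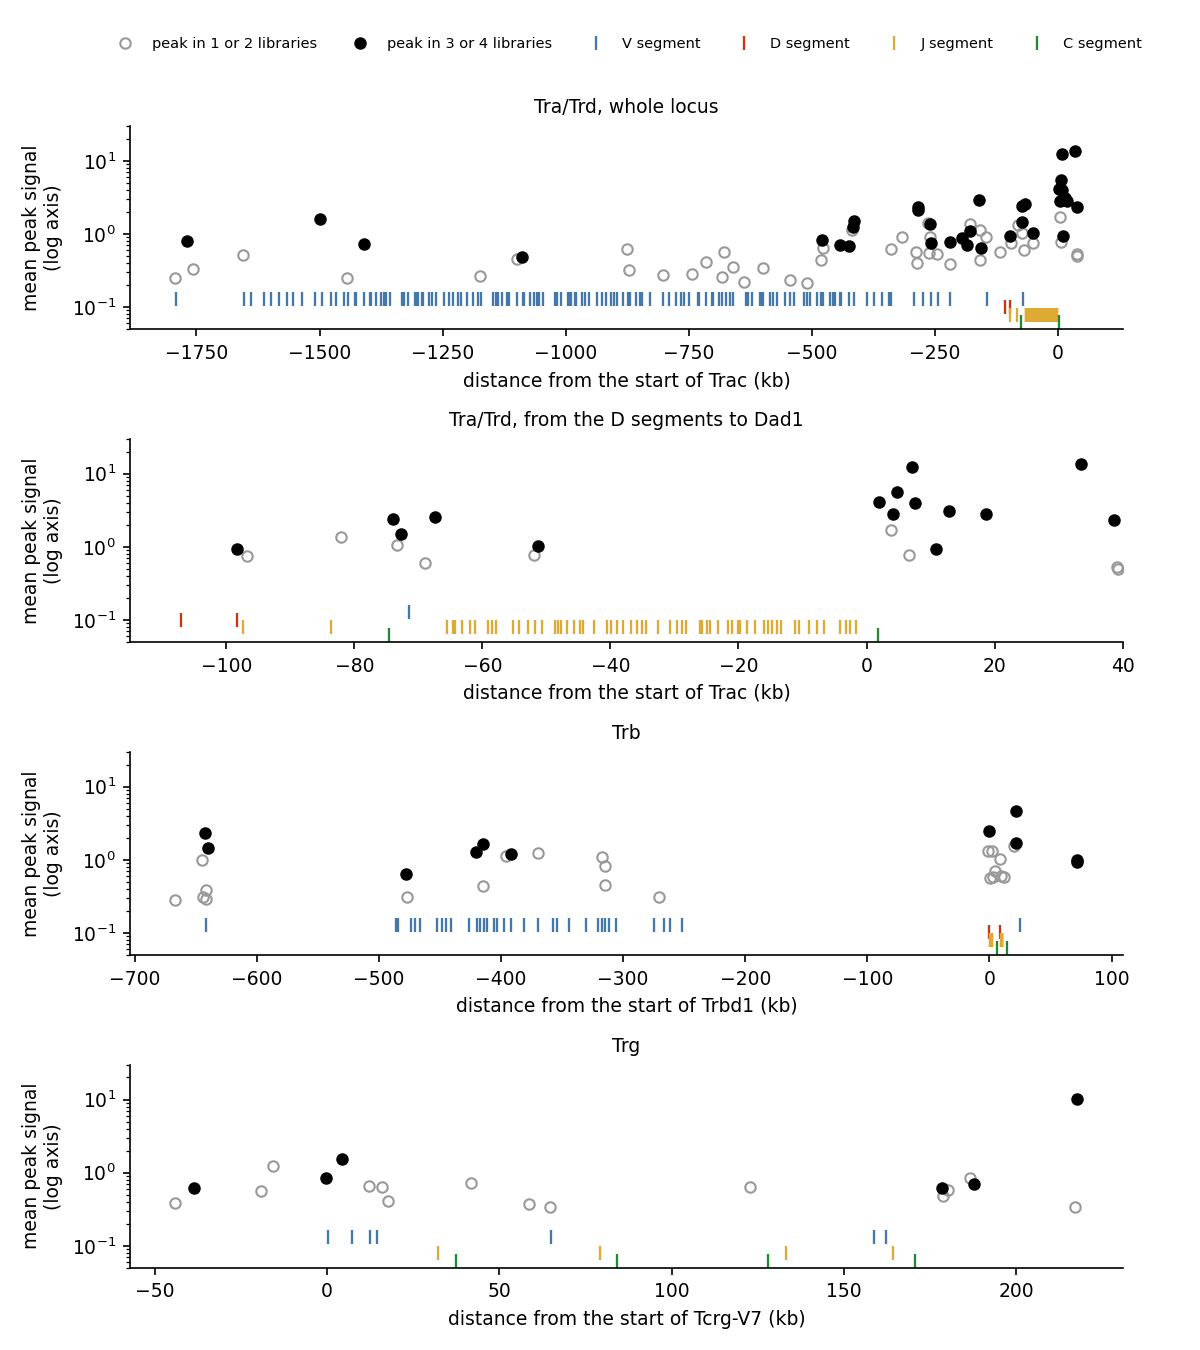
Mean peak signal (log axis) of every region with a peak in the 3 loci against the distance in kb from the start of Trac, Trbd1 or Tcrg-V7; filled points are regions of 3 or 4 libraries, open points of 1 or 2, and ticks mark V, D, J and C segments. The filled points gather past Trac, from the intron of the gene to Dad1, while the long V array of Tra/Trd and the J array hold few.

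RSSs were read beside each segment to ask whether the sites of recombination were themselves in open chromatin. A heptamer starting with CAC was found at 167 of 178 V sides, all 8 D sides and 68 of 80 J sides. Of these, 1 V, 2 D and 0 J RSSs lay in a recurrent region as merged over libraries. None had a base with an FDR below 0.001 in 3 or more libraries, and a base of that kind in any library was seen at 3 V, 2 D and 1 J RSSs. Over the genome, recurrent regions covered 0.445% of bases. The share for other sites of this length is not given here, so these counts cannot be read as high or low. Of the 167 V RSSs, 129 are in Tra/Trd, where the V windows had a median of 27.5% unique sequence. The part of mapping in these counts was not tested. The RSSs in recurrent regions were those of Trdv2-2 and both sides of Trdd2, shown here with those of Trbd1, which lay just outside its region. Each is read outward from the segment, with heptamer and nonamer in capitals, so the 5' ones are on the minus strand. Peaks of 3, 4 and 2 libraries reached the RSS of Trdv2-2 and the 5' and 3' RSSs of Trdd2, so the last lies in the merged region but under a peak of only 2 libraries. The spacer is 23 bases after V and D and 12 bases before D.
Trdv2-2 RSS, chr14:53961603-53961641: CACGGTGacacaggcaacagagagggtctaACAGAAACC
Trdd2 5' RSS, chr14:54122198-54122225: CACGGTGctacagagctttGCAAAAACC
Trdd2 3' RSS, chr14:54122242-54122280: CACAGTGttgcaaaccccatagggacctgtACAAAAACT
Trbd1 5' RSS, chr6:41533173-41533200: CACAATGttacagctttatACAAAAAAG
Trbd1 3' RSS, chr6:41533213-41533251: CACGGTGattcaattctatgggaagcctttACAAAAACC

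The Trdd2 3' heptamer is the consensus CACAGTG, and the other 4 differ from it by 1 base. The consensus heptamer stood at 113 of the V, 2 of the D and 19 of the J RSSs. At Trdd2, low-FDR bases covered the 28 bases of the 5' RSS and the 39 bases of the 3' RSS in replicate 3 and none of either in the other libraries. At Trdv2-2 they covered all 39 bases in replicate 3, 19 in replicate 4 and none in the others.

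The V segments carry the promoters from which each rearranged receptor gene is transcribed. Among the 13 V segments with a recurrent region, the nearest region lay on the 5' side at 6, over the segment at 6 and on the 3' side at 1. In Tra/Trd the strongest was 138 bases upstream of Trav17, with signals of 1.68, 1.53, 2.31 and 0.509 in replicates 1 to 4. Trdv5 came next with 1.32, 1.03, 2.54 and 1.03, then Trdv2-2 with 1.15, 0.957, 2.43 and 0.951. Trdv3, the only pseudogene of 44 with a recurrent region, had 0.635, 0.503, 1.57 and 0.384. Replicate 3 was the highest library at each of these. Trav10d and Trav3-4 had no peak in replicate 4 and averaged 0.733 and 0.702 over the 3 others.

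In Trb the V segments with recurrent regions were Trbv1, Trbv12-2, Trbv12-1 and Trbv15. Trbv1, the first segment of the locus, had 1.83, 1.76, 4.58 and 1.26 in replicates 1 to 4 over its 5' end, and a second region 1755 bases past it averaged 1.44 ± 0.502. Trbv15 had 1.15, 0.886, 2.37 and 0.413 over its 5' end. A region 3491 bases before Trbv4, in an exon of 5830405F06Rik, averaged 0.637 in replicates 1 to 3. The sister segments Trbv12-1 and Trbv12-2 had regions at nearly the same place, 369 and 370 bases upstream. Their signals were 0.952, 1.30, 1.82 and 1.11 for Trbv12-1 and 1.79, 1.47, 2.40 and 0.999 for Trbv12-2. Both are shown because each holds 1 footprint shared by 3 libraries (capitals, plus strand), at chr6:41112981-41113180 and chr6:41118281-41118480.
Trbv12-1 5' region: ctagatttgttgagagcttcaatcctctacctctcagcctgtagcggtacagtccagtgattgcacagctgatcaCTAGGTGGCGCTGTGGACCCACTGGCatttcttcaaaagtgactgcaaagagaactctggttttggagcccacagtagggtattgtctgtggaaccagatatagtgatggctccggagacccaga
Trbv12-2 5' region: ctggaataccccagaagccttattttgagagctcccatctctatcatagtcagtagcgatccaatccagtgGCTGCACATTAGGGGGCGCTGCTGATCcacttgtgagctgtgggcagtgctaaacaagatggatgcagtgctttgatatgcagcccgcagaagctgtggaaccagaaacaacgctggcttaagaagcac

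The capitals are 26 bases at Trbv12-1 and 27 bases at Trbv12-2, and each holds the CTCF core word AGGNGGCGC, as did the footprint before Traj61. These were 3 of the 4 regions of the loci with that word in their central bases. The matches are descriptions of the letters; no CTCF binding was measured.

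In Trg, the only segment with a recurrent region was Tcrg-V7, the first of the locus. Its region, chr13:19177724-19177937, lay 86 bases upstream and had 0.795, 1.20 and 0.529 in replicates 2 to 4 with no peak in replicate 1. A stronger region with no segment inside 1 kb lay between Tcrg-V7 and Tcrg-V4 at chr13:19182361-19182620, with 1.42, 1.06, 2.56 and 1.08 in replicates 1 to 4 (1.53 ± 0.707, SD, n = 4). It falls in an intron of the annotated transcript Gm31887. From the end of Tcrg-C1 to the end of Tcrg-C4, 136 kb, there was no recurrent region. The strongest region of the flanks was the start of Stard3nl, at 7.53, 10.9, 14.1 and 8.49, and 3 weak ones lay past Tcrg-C4 and in Amph with means of 0.702, 0.617 and 0.614.

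**Figure D3:**
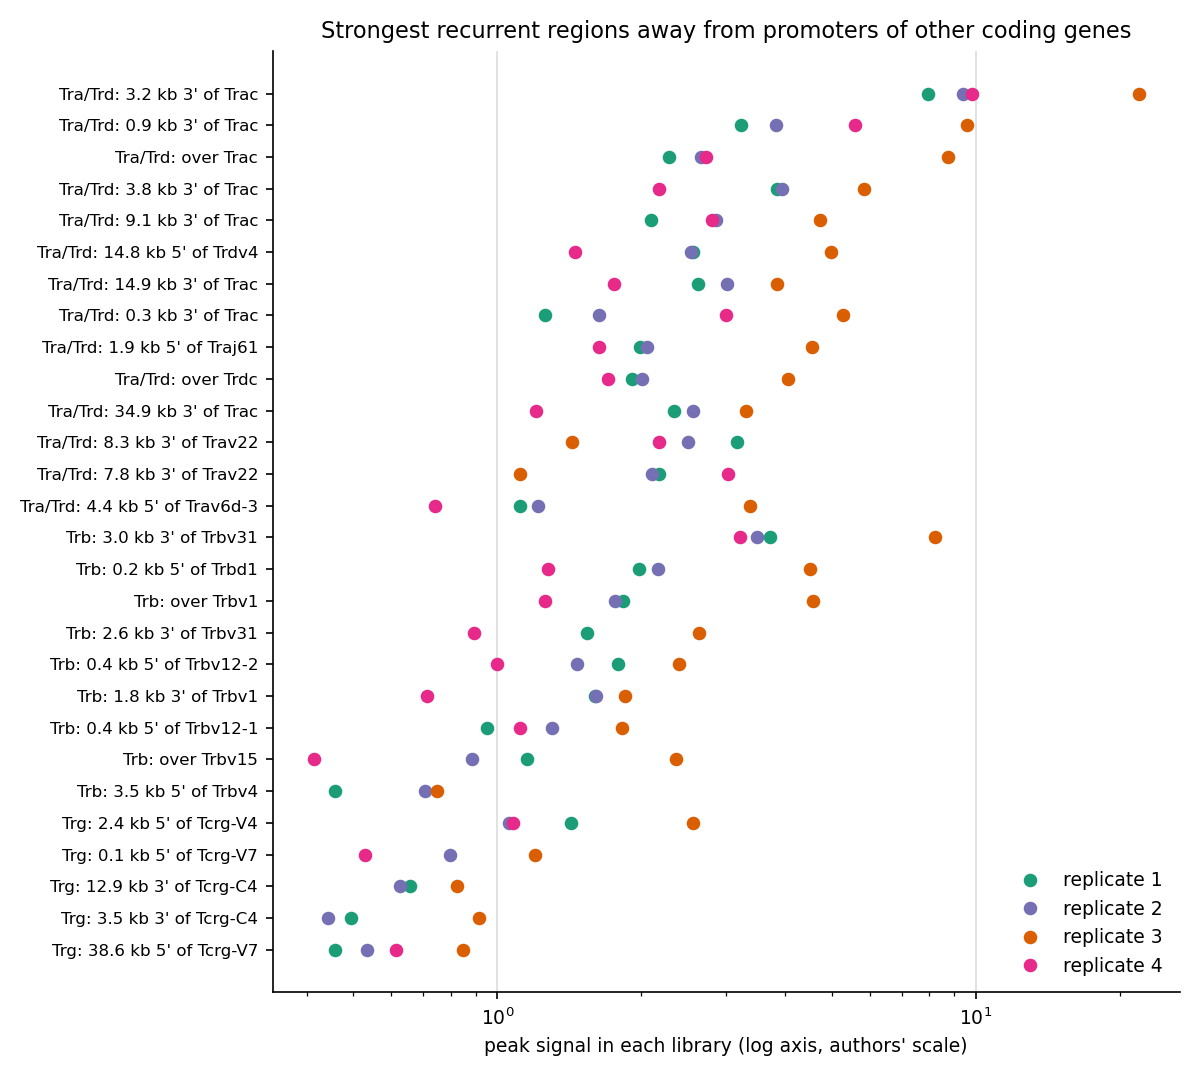
Peak signal in each library (log axis, authors' scale) of 28 of the strongest recurrent regions of the loci away from the promoters of other coding genes, named by the nearest segment. Replicate 3 (orange) is highest at 26 of them, and the exceptions are the pair past Trav22.

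Replicate 3 was the highest library at 33 of the 36 regions of the loci found in all 4 libraries, or 91.7%. Over all 27110 such regions of the genome it was highest at 77.2%. Its median ratio to the mean of the 3 others was 2.17 in the loci and 1.48 over the genome. A pair of regions ran the other way. They lie 7765 and 8265 bases past Trav22 in an intron of Gm43647. The first, chr14:53935361-53935680, had 2.17, 2.10, 1.11 and 3.03, and the second, chr14:53935861-53936260, had 3.17, 2.50, 1.43 and 2.18, so replicate 3 was the lowest library at both. Only 21.3% and 9.75% of their sequence is unique, and the part of this in the values was not tested.

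Other Tra/Trd regions among the strongest had no segment inside 1 kb. One lay 14824 bases before Trdv4, at chr14:54059861-54060080, with 2.56, 2.54, 4.98 and 1.45. One lay 4358 bases before Trav6d-3 with 1.12, 1.22, 3.37 and 0.740. By locus there were 34 recurrent regions in Tra/Trd with its 50 kb flanks (1.79 per 100 kb), 11 in Trb (1.43) and 6 in Trg (2.18), against 1.39 over the genome. Without replicate 3 the numbers were 33, 11 and 5. With all 4 libraries, 15, 5 and 1 of the recurrent regions were within 1 kb of a segment. The Trg value rests on few regions and went from 1.82 without replicate 3 to 3.64 without any 1 of the other libraries. It also rests on the flanks. Counted without the 50 kb flanks, Trg held 1 recurrent region (0.572 per 100 kb) and Trb 9 (1.349), both below the 1.389 of the genome. Tra/Trd then held 25 (1.392), about the density of the genome.

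Sequence uniqueness differed widely among V segments and has to be read beside their missing peaks. The Tra V array arose by duplication, and GENCODE marks copies with d or n in their names. Of the 39 V segments of the locus with d names, 1 had a recurrent region, as did 1 of 34 with n names and 6 of 63 others. The median share of unique sequence in their windows was 2.21%, 1.25% and 56.8%. Over all V segments, a recurrent region was found at 2 of 93 windows under 50% unique, 4 of 38 from 50% to 90% and 7 of 47 of 90% or more. Among J windows of 90% or more it was 4 of 74. These shares of 14.9% for V and 5.41% for J stand beside 6.74% for other genes of up to 1000 bases, of any uniqueness. The J count in unique sequence was thus near that of other short genes, and the V count there was above it. For most V segments, reads that map to several places could be missing, which was not tested.

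The Trav10 family is described separately, with segments picked after their values were seen. Trav10d, Trav10n and Trav10 had peaks in 3, 2 and 1 libraries. The signals were 0.834, 0.675 and 0.689 in replicates 1 to 3 at Trav10d, 0.541 and 0.382 in replicates 1 and 3 at Trav10n, and 0.415 in replicate 3 at Trav10. Unique sequence made up 27.1%, 36.1% and 51.8% of their windows.

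**Figure D4:**
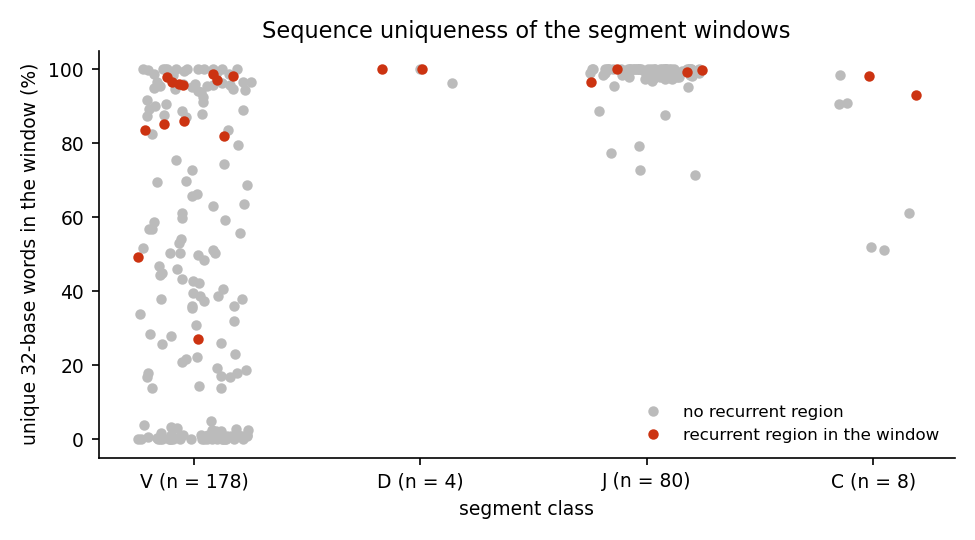
Share of unique 32-base words in each segment window (vertical axis, percent) by segment class; each point is 1 segment, red where a recurrent region lies in the window. Most V windows under 50% unique have none (2 of 93 are red), while nearly all J windows are highly unique and still grey.

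From Trav1 to Trav21-dv12, 1449 kb of 35.2% unique sequence, there were 9 recurrent regions (0.621 per 100 kb). From the end of Trav21-dv12 to Trdd1, 237 kb of 86.7% unique sequence, there were 10 (4.22 per 100 kb). From Trdd1 to the end of Trdc, 35.4 kb, there were 3 (8.47 per 100 kb).

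Motif words were counted in the 150 central bases of the 47 recurrent regions of the loci away from promoters, on both strands, and set beside the 23620 such regions of the genome. TCF/LEF words (CTTTGA) were in 21.3% of regions against 9.43%, GATA words (AGATAA) in 12.8% against 4.54%, and RUNX words (TGTGGT or TGCGGT) in 36.2% against 24.4%. ETS words (AGGAAG) were in 34.0% against 27.4% and E-box words (CAGCTG or CAGGTG) in 31.9% against 25.5%. T-box words (AGGTGTG) and the CRE word were in none, against 4.25% and 3.65%; the CRE word of the region past Trac lies outside its central 150 bases. The heptamer CACAGTG was in 4.26% against 6.13%. The counts are small, 6 regions for GATA and 10 for TCF/LEF, and were not tested.

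Genes that assemble or signal through the receptor were read at their 5' ends for comparison. Of 11 genes, 5 had a recurrent region within 1 kb. Over other annotated genes of any type, 33.3% had one in the gene or within 1 kb, a wider window. The share at 5' ends alone is not given here, so 5 of 11 cannot be read as high or low. Rag1 and Rag2, which encode the recombinase, Dntt, which adds bases at the joints, and Ptcra, the partner of the β chain in early thymocytes, had no peak there in any library. Elsewhere in the gene or within 1 kb of it, Dntt had 2 recurrent regions, Rag2 had 1, and Rag1 and Ptcra had 0. Among the CD3 chains, Cd3d and Cd3e had none at the 5' end and Cd3g had 0.505, 0.534 and 0.598 in replicates 1 to 3. Cd247, the ζ chain that NK receptors also use, had 1.19, 1.01, 3.20 and 0.826 in replicates 1 to 4. The kinases Zap70 and Lck averaged 2.33 ± 0.837 and 1.92 ± 0.663, and the adaptor Lat 1.91 ± 0.402 (SD, n = 4).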

How the data were processed

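The 4 DNase-seq libraries were used as deposited. Peaks, footprints and FDR values were made for each library separately from its filtered reads on mm10, per the deposited readmes. The name of neither aligner nor caller is given in the sources used here, nor is any handling of CAST alleles or of reads that map to several places. The authors' peak lists give a signal per peak, whose scale between libraries is not stated; the longer of the 2 lists was used. The deposited FDR files list p-value like measures per base below 0.05, and the deposited footprints carry a constant threshold of 0.01, per the file values. The read depth is unknown.

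Segments came from GENCODE vM21 on GRCm38.p6. Touching or overlapping peaks were merged, and a region needed 3 of 4 libraries. Signals are given per library and without a value where a library has no peak. Class differences were tested by exact sign-flip permutation over libraries with Benjamini-Hochberg adjustment. Unique sequence was the share of 32-base words occurring once on either strand. RSSs were read as a heptamer of 7 bases, a spacer of 23 or 12 bases and a nonamer of 9. Calculations used Python 3.11.15 and numpy 2.4.6 and were tested on simulated data.

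Named in the text are all C and D segments, up to 6 V and 6 J segments per locus with the highest mean signal among those with a recurrent region, up to 15 recurrent regions per locus, and 11 receptor assembly and signalling genes. The members and lists were chosen with earlier results of these data known. Alternatives covered the shorter list, the number of libraries, the flanks, the FDR threshold, functional segments only, nearest segment only, each library left out, and equal numbers of peaks, the last chosen after seeing the data.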

Additional observations from a re-analysis of the deposited data

Results flagged for a closer look

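In 46 readouts with 1 value per library, 19 had 1 library far from the other 3 by Dixon's criterion for 4 values, and it was replicate 3, as the highest, in all 19. Chance alone gives about 1 such readout in 20, and the readouts share segments and libraries. By class, the share of windows with a peak in replicate 3 was 17.4% for V, 75.0% for D and 37.5% for C segments. Its low-FDR bases were 198 per kb for D, 17.5 for J and 67.8 for C windows, and its footprints 3.5 per window for D and 0.613 for J.

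By locus, replicate 3 had 3.80, 4.43 and 7.28 peaks per 100 kb in Tra/Trd, Trb and Trg. It had 10.02 footprints per 100 kb in Tra/Trd and 16.02 in Trg, and 17.6 low-FDR bases per kb in Trg. Among single regions, its signal stood apart in the region 3194 bases past Trac (21.9), in the Trac intron (8.75), before Traj61 (4.55), in Trdc (4.04) and past Trbc2 (8.20). Replicate 3 also had the most peaks and the highest NK marker signal, and its part in these values was not tested.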

How the results depend on the processing

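Of 150 alternative values, 27 moved by over 1.5 times (counts and densities) or by over 1 SD, and 2 differences turned. The SD of D and J values is wide, so large shifts can lie within it: without replicate 3, low-FDR bases per kb went to 20.1 in D and 0.434 in J, and without the flank footprints per D segment went to 0.0625. With the shorter peak list, segments with a recurrent region were 8 V, 1 D and 1 J, and Trg held 0.728 regions per 100 kb. A peak in 1 library gave 31 V and 15 J segments and 4.11, 4.30 and 7.28 regions per 100 kb in Tra/Trd, Trb and Trg. Requiring all 4 libraries gave 2 J segments and 0.912 and 1.09 regions per 100 kb in Trb and Trg. Without the flank there were 6 V, 1 D and 0 J segments, 0.572 regions per 100 kb in Trg and 0.0435 footprints per V segment. A flank of 5 kb gave 23 V and 24 J segments, and J minus V turned to 10.6 percentage points. Counting each region for its nearest segment gave 1 J segment. Equal numbers of strongest peaks gave 2 J segments, 1.09 regions per 100 kb in Trg and a J minus V difference of 0.930 points. Leaving out 1 library gave 4 to 10 J segments and 1.82 to 3.64 regions per 100 kb in Trg. Regions per 100 kb over the genome were 1.04 with the shorter list, 2.97 with a peak in 1 library and 1.03 with all 4. They were 1.14 with equal numbers of peaks and 1.44 to 1.67 with 1 library left out. Trb lay below the genome with all 4 libraries, with equal numbers of peaks and, narrowly, without replicate 3. Trg lay below it with the shorter list and with equal numbers of peaks, and Tra/Trd in none of these settings. Without the 50 kb flanks of the loci, Trb (1.349) and Trg (0.572) lay below the 1.389 of the genome. Tra/Trd (1.392) was then about equal to it. The cause of these shifts was not tested. Of the 21 segments, 12 were also called with the shorter list, 15 in all 4 libraries and 17 with equal numbers of peaks. The mean of C minus V stayed above 0 under the settings run. So did that of D minus V, but without the flank it was 8.29 ± 13.7 points (exact p = 0.5) and D low-FDR bases were 75.5 ± 151 per kb, all from 1 library. Classes were compared within each library, and there is no second group of samples to pair. Near-identical copies, an unknown read depth and the unstated signal scale limit what absent or weak peaks show.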
